A study of Mus musculus with 16 samples.

Results

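The regions described here are 635 ATAC-seq peaks that were open in both regulatory T (Treg) cells and their precursors (preTreg cells) of CNS4-sufficient mice and weak in the CD25-negative thymocytes of the same mice. They are 0.865% of the 73442 peaks of the series. They were chosen from the FL libraries by 3 criteria on the mean of both libraries per population: a normalised read count of at least 30 in Treg_FL and in preTreg_FL, a ratio of Treg_FL to preTreg_FL between 0.5 and 2, and the lower of these means plus 1 at least 3 times the higher of the mSP_FL and smSP_FL means plus 1. Their levels in FL cells are therefore given as a description. The 3 criteria did not use the CNS4-deficient (KO) libraries, but they were set with earlier results of these data known. Tests within the KO libraries are limited by that, and each comparison of KO with FL also uses the FL values that chose the peaks.

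ATAC-seq measures where a transposase can insert into DNA, so that a high read count marks open chromatin, mostly promoters and enhancers. In the thymus, developing CD4 T cells that receive a strong T cell receptor signal can become CD25-positive precursors that do not yet express Foxp3, and IL-2 signals through STAT5 then favour the expression of Foxp3, the transcription factor that defines Treg cells. CNS4 is named as a conserved non-coding sequence of the Foxp3 locus. Regions open in both populations are thus candidates for chromatin opened before Foxp3 protein appears.

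The libraries came from thymus of C57BL/6J males that all carried a Foxp3-GFP reporter on their X chromosome, either without CNS4 (KO, mice T7 and T8, genotype CNS4KO/Y Foxp3GFP/Y) or with it (FL, mice T9 and T10, genotype CNS4FL/Y Foxp3GFP/Y). Ages are not given in the sources used here. From each of the 4 mice, 4 populations of CD4 single positive cells were sorted, namely Treg (Foxp3-GFP positive), preTreg (CD25 positive, GFP negative), mSP (mature, CD24 low) and smSP (semimature, CD24 high), both of the last without CD25 and GFP, which made 16 libraries in 8 groups of 2 with 5585827 to 11437401 reads in peaks. Values are read counts per peak divided by a size factor per library. The 1 peak of the series that had 0 reads in all 8 KO libraries and reads in every FL library lay in Ppp1r3f, close to Foxp3 (chrX:7570739-7571052, mm10), with a normalised read count between 47.7 and 139.6 in the FL libraries. For KO mouse T8 the titles and descriptions of the libraries labelled mSP and smSP name opposite populations, and Cd24a was higher in the libraries labelled mSP than in those labelled smSP in both genotypes (summed normalised read count 554 to 578 against 257 to 334 in KO, 575 to 582 against 302 to 339.7 in FL). S1pr1, listed among mature thymocyte genes, was lower in the libraries labelled mSP (1994 to 2108 against 2916 to 3486 in KO, 1607 to 1858 against 2998 to 3245 in FL). In both genes the T8 libraries lay with the T7 libraries of the same title. Because of the conflict of titles and descriptions, libraries labelled mSP and smSP were averaged as SP in the tests. Exchanging these labels thus leaves each SP mean as it is, while the error of the fit, and with it the calls, can change.

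Most of the 635 peaks lay far from gene starts and ends, as the plot of distances to the nearest end of a protein-coding gene shows. The median distance from the peak centre to such an end, start or 3' end since the gene table holds no strand, was 26012 bp for the shared peaks and 3603.5 bp for all peaks. Beyond 10 kb lay 74.3% of the shared peaks and 38.3% of all peaks, while 4.25% of the shared peaks and 37.3% of all peaks lay within 1 kb. Within a gene body lay 323 of the 635 (50.9%), against 68.3% of all peaks, and the median width was 221 bp for the shared peaks and 170.0 bp for all peaks. Exons and introns were not told apart. Of the 635, 526 were assigned to 396 genes by the gene body overlapped or the nearest one within 50 kb. Of these genes, 305 had 1 shared peak, 63 had 2, 19 had 3, 7 had 4 and 2 had 5, so that some peaks share a locus and are not independent. Shared peaks less than 10 kb apart formed 97 runs of 2 or more that held 217 peaks, and 20 runs of 3 or more held 63. Runs of 4 lay in Ikzf2 (chr1:69544272-69555703), which encodes the Treg transcription factor Helios, beside Tnc (chr4:63935379-63939931), which encodes the matrix protein tenascin C, and in Adh4 (chr3:138419362-138423874), which encodes an alcohol dehydrogenase.

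**Figure D1:**
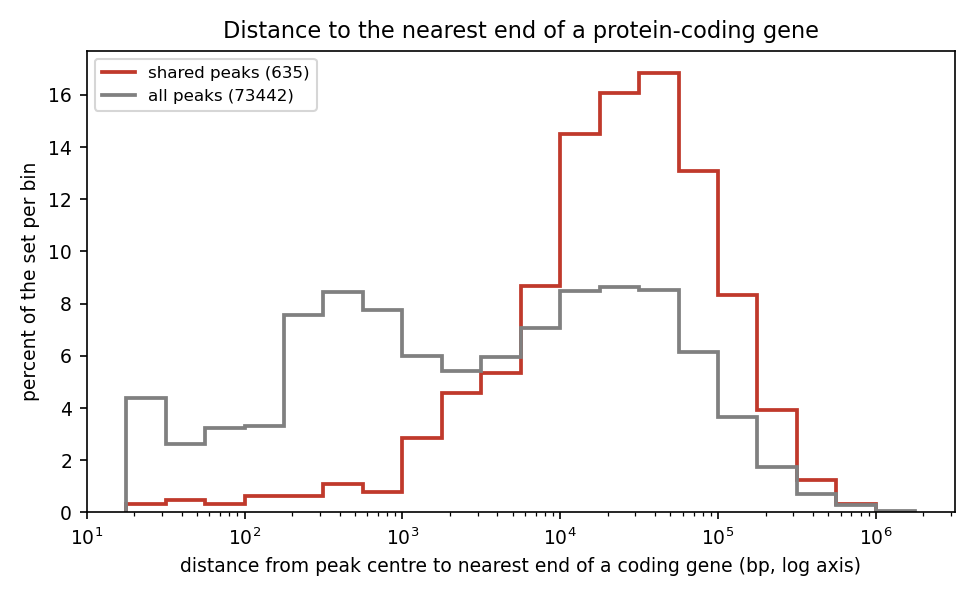
Distance from the centre of each peak to the nearest end of a protein-coding gene (bp, log axis), as percent of the set per bin, for the 635 shared peaks (red) and all 73442 peaks (grey). The grey line has an additional rise below 1 kb (37.3% of all peaks) that the red line lacks (4.25% of shared peaks).

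Only 18 shared peaks touched a RefSeq promoter window, which runs from 250 bases before to 50 bases after a transcript start. Restricted to peaks whose assigned gene has a window in the table, these were 15 of 395 shared peaks (3.80%) and 22.8% of all such peaks. The windows of 3 of them are printed here because they stand for 3 patterns in the KO mice: Rgs16 (a regulator that ends G protein signalling), whose peak was higher in Treg_KO than in preTreg_KO, Casp4 (an inflammatory caspase), for which neither direction was called, and Samd3, the 1 shared peak that limma called lower in Treg_KO. The windows lie at chr1:153740103-153740402, chr9:5308610-5308909 and chr10:26229457-26229756 of GRCm38.p6 (mm10), all on the plus strand, and are credited to RefSeq. Capitals mark matches to an NF-kB pattern, GGGA and CC with 4 bases of any kind between them.
Rgs16: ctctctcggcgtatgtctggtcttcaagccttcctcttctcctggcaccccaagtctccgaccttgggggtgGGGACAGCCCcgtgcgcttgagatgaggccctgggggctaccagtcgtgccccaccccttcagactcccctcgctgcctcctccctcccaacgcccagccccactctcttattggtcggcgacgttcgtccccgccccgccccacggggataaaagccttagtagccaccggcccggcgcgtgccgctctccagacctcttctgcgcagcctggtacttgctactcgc
Casp4: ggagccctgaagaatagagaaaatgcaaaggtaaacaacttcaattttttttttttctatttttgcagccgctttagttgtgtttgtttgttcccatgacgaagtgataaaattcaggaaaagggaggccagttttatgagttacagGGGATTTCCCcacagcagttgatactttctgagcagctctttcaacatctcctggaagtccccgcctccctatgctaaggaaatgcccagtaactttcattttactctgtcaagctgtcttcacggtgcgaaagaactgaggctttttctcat
Samd3: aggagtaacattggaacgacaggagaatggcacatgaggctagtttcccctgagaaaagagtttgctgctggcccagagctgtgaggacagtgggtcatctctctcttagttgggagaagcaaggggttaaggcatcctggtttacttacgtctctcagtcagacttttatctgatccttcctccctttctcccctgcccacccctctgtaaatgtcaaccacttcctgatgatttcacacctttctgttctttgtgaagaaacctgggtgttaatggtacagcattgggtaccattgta

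Both strands of the 17 windows of 300 bases that the shared peaks touched were searched for 5 motifs. The NF-kB pattern was present in 8 of the 17 windows (47.1%), against 20.7% of all 32817 windows of the same length. Of the 8, 2 are overlapping Casp4 windows that hold the same match. An AP-1 pattern, TGANTCA, was present in 5.88% of the 17 windows and 7.81% of all, a STAT pattern, TTCNNNGAA, in 5.88% and 8.29%, a RUNX pattern, TGTGGT, in 17.6% and 16.8%, and an NR4A pattern, AAAGGTCA, in 0% and 1.51%. With 17 windows these shares are a description of few sequences, and no sequence of the distal peaks was used here.

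In the KO mice, whose values the criteria did not use, the shared peaks were again open in Treg and preTreg cells and weak in both SP populations. The median normalised read count over the 635 peaks was 104.6 and 80.6 in the Treg_KO libraries of T7 and T8, against 61.7 and 66.2 in the Treg_FL libraries of T9 and T10. In preTreg cells it was 60.0 and 52.4 in KO and 64.2 and 68.0 in FL, so Treg_KO lay above and preTreg_KO below the FL libraries with no overlap of the library medians. In libraries labelled mSP it was 8.03 and 8.61 in KO and 6.81 and 7.17 in FL, and in those labelled smSP 12.1 and 10.9 in KO and 9.21 and 8.63 in FL. The medians over all peaks were within 51.2 to 55.1 in all 16 libraries. Of all reads in peaks, the 635 peaks took 1.09% and 0.876% in Treg_KO, 0.713% and 0.751% in Treg_FL, 0.677% and 0.610% in preTreg_KO and 0.702% and 0.732% in preTreg_FL. A higher count at a peak can come from more cells of the sorted population with the site open or from a more open site per cell, and these cannot be told apart here.

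**Figure D2:**
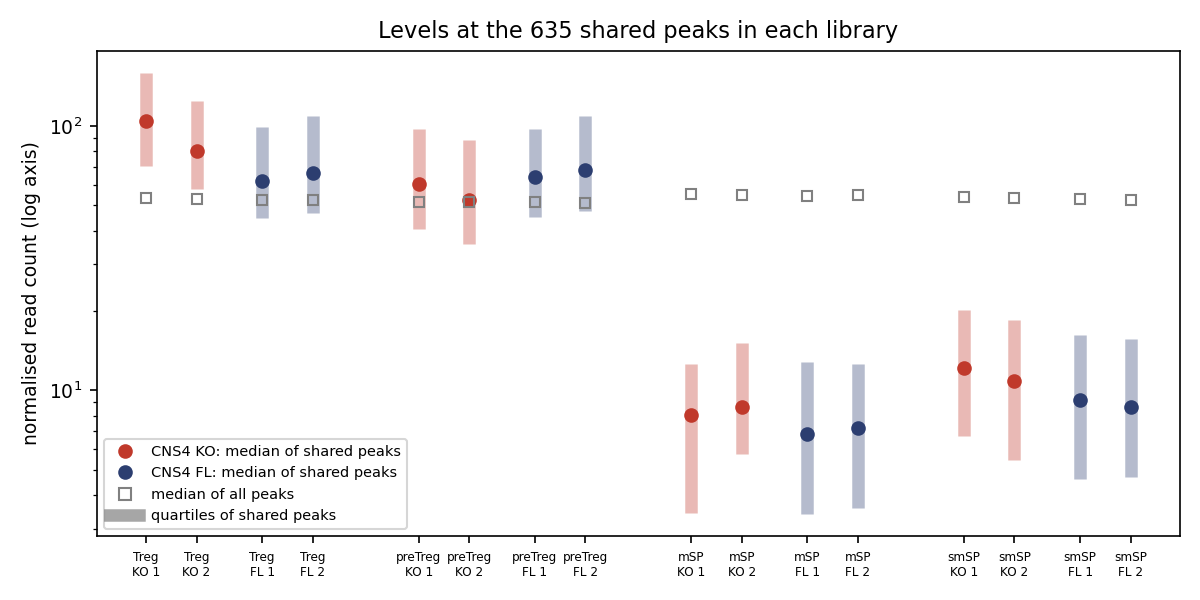
Normalised read count (log axis) at the 635 shared peaks in each of the 16 libraries, with KO (red) left of FL (blue) within each population, the filled circle at the median, the bar over the quartiles and the grey square at the median of all peaks. The Treg_KO medians of 104.6 and 80.6 stand above those of the other 14 libraries, and the SP libraries lie between 6.81 and 12.1.

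The comparison with SP cells within KO mice asked whether the same regions stood apart without CNS4. By limma with Benjamini-Hochberg adjustment over all peaks, 625 of the 635 peaks were higher in preTreg_KO than in SP_KO and 0 were lower, where 18.8% of all tested peaks were called higher and 20.5% lower. In Treg_KO over SP_KO, 634 were higher and 0 lower, against 20.1% and 22.1% of all tested peaks. By edgeR the counts were 632 in preTreg_KO and 634 in Treg_KO, with 0 lower, against 18.9% and 20.6% of all tested peaks called higher and 22.8% and 22.6% lower. In Treg_KO the 1 peak that limma did not call lay in Rora (adjusted p = 0.0511 by limma and 1.91e-08 by edgeR). The 1 that edgeR did not call was that at Samd3 (edgeR adjusted p = 0.0677). The median log2 fold was 2.55 in preTreg_KO over SP_KO, against 0.02 over all peaks, and 3.14 in Treg_KO over SP_KO, against 0.03. In 626 peaks all 4 Treg_KO and preTreg_KO libraries lay above all 4 SP_KO libraries (98.6%, against 16.9% of all peaks). Among the 10 peaks that limma did not call in preTreg_KO were Clec16a, Dnase1l3 and 1 of the 4 Ikzf2 peaks, described further on. Their edgeR adjusted p were 0.0846, 0.0496 and 0.0492.

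The peaks with the largest fold of the lower of Treg_KO and preTreg_KO over the higher SP_KO group had SP_KO counts between 0 and 17.2, and 2 of the first 10 had almost no reads there. The peak in Ppp4r4, which encodes a regulatory subunit of protein phosphatase 4 (chr12:103550080-103550309), had a normalised read count of 152 and 93.1 in Treg_KO, 75.7 and 56.1 in preTreg_KO and 0 in 3 of the 4 SP_KO libraries. From 2 reads in all SP_KO libraries together, the ratio of Treg_KO to SP_KO was 193 (95% exact interval 52.7 to 1600, counting error only) and that of preTreg_KO to SP_KO 106 (28.9 to 888). The peak in E130308A19Rik (chr4:59682567-59682742) had 154 and 121 in Treg_KO, 76.6 and 44.1 in preTreg_KO and between 0 and 2.17 in the SP_KO libraries, with ratios of 146 (49.5 to 714) and 65.0 (21.8 to 319) from 3 SP_KO reads. Both were picked by their fold in these same KO reads, a choice that can raise the ratios and that the intervals leave out. These 2 peaks were lower in preTreg_KO than in Treg_KO in both mice, though limma did not call that step (adjusted p = 0.473 and 0.244). Strongest by level among the 10 was the peak in Osbpl3, a lipid-binding protein of the oxysterol-binding family (chr6:50393920-50394464), with 691 and 556 in Treg_KO, 245 and 235 in preTreg_KO and between 2.87 and 13.4 in SP_KO. Near Cemip2, which encodes a hyaluronan-degrading surface protein (chr19:21863579-21863866), the count was 235 and 169 in Treg_KO and 212 and 207 in preTreg_KO, so here the 2 populations overlapped. The other 6 of the 10 lay in Hlcs (holocarboxylase synthetase), Galm (galactose mutarotase) and Rora (an orphan nuclear receptor), near Ociad1, and at 2 sites with no coding gene within 50 kb.

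Of the 635 peaks, 356 (56.1%) met all 3 criteria again when the KO means were used, and these were 41.4% of the 859 peaks that met them in KO. The share of the 635 was 49.6% in T7 alone and 52.8% in T8 alone, against 77.0% in T9 alone and 80.6% in T10 alone, whose values had been used in the choice. Of the 279 peaks that failed in KO, 186 failed the ratio (101 by it alone), 142 the fold over SP (71 by it alone) and 81 the level (10 by it alone). In 185 of the 186 the KO ratio of Treg to preTreg was above 2, and in 1 it was below 0.5. Over all peaks, 4.94% had a KO ratio above 2 and 4.78% one below 0.5, against 29.1% and 0.157% of the shared peaks. In FL cells, the peak just inside the upper limit of the ratio was that in Cd48 (1.99) and the one just outside it was near Cd83 (2.00). At the lower limit these were a peak on chromosome 2 with no gene (0.501) and a peak of Nrp1 (0.497), at the level of 30 peaks of Nedd9 (30.0) and Klrb1c (29.6), and at the fold of 3 peaks of Prkcb (3.0001) and Inpp4b (2.9996).

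The step of Treg over preTreg in the same mouse was close to 0 in FL mice, where the choice bounded it, and above 0 in both KO mice. The median log2 ratio was 0.71 in T7 and 0.56 in T8, against -0.01 in T9 and -0.03 in T10. Treg lay above preTreg at 560 of the 635 peaks in T7 and 517 in T8, against 308 in T9 and 309 in T10. Over all 73442 peaks the median lay between -0.03 and -0.01 in all 4 mice. The choice of peaks was then turned round, after these values had been seen. At the 859 peaks chosen on KO means the median was 0.21 in T7 and 0.01 in T8, against -0.63 in T9 and -0.64 in T10. At the 815 peaks that met the criteria on the means of all 4 mice it was 0.42 and 0.27 in the KO mice, against -0.37 and -0.39 in the FL mice. In each of the 3 sets both KO mice lay above both FL mice. These medians are given without a test.

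**Figure D3:**
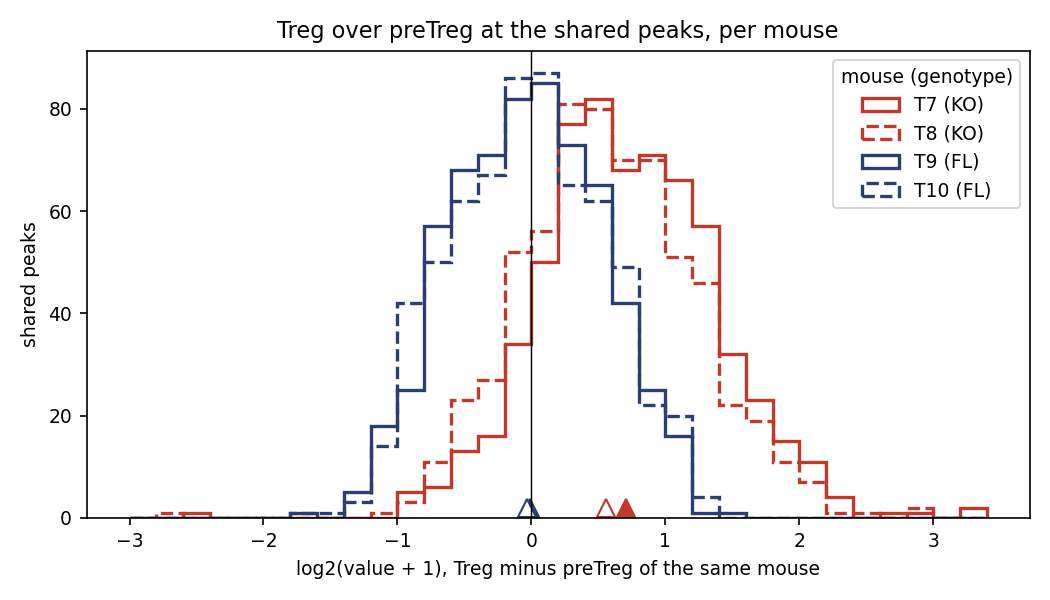
Number of shared peaks by the log2 ratio of Treg to preTreg of the same mouse, for the KO mice T7 and T8 (red) and the FL mice T9 and T10 (blue), with triangles at the medians. The medians are 0.71 and 0.56 in the KO mice and -0.01 and -0.03 in the FL mice, whose values were bounded by the choice of peaks.

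Within the KO mice, limma called 110 of the 635 peaks higher in Treg_KO than in preTreg_KO and 1 lower, where 5.73% of all tested peaks were called higher and 6.98% lower. The median log2 fold was 0.65, against -0.01 over all peaks, and 555 of the 635 folds were above 0. Both Treg_KO libraries lay above both preTreg_KO libraries at 437 peaks (68.8%, against 25.6% of all peaks), and the reverse held at 36 (5.67%, against 27.2%). On the recovered reads edgeR called 291 higher and 5 lower, against 7.86% and 7.25% of all tested peaks, so the number of calls rested on the tool. It also fell whichever library of these 2 groups was left out, which leaves 1 library in a group. The median log2 fold in those fits lay between 0.48 and 0.78. With the SP populations of T8 taken from the descriptions, limma called 42 higher.

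The largest step of the 110 was at a peak within Clec16a, which encodes a membrane protein of the autophagy pathway (chr16:10566572-10566957). It had a normalised read count of 147 and 122 in Treg_KO and 14.8 and 16.5 in preTreg_KO, against 52.6 and 49.0 in Treg_FL and 25.7 and 35.3 in preTreg_FL. The log2 fold of Treg_KO over preTreg_KO was 3.02 ± 0.40 (SE, limma adjusted p = 7.67e-06), and the preTreg_KO values were close to those of the SP_KO libraries, which lay between 5.74 and 12.1. A peak within Dnase1l3, the gene of a secreted DNase (chr14:7994493-7994813), had 208 and 151 in Treg_KO and 31.4 and 18.4 in preTreg_KO, against 115 and 136 in Treg_FL and 55.7 and 80.3 in preTreg_FL (Treg_KO over preTreg_KO 2.83 ± 0.36, limma adjusted p = 5.53e-06). Both peaks thus had a lower count in preTreg_KO than in preTreg_FL, with no overlap of the libraries, and limma did not call that genotype difference (adjusted p = 0.594 for Clec16a and 0.0564 for Dnase1l3, by edgeR 0.225 and 0.00436). A peak at chr5:53413679-53413964 with no coding gene within 50 kb had a fold of 2.57 ± 0.59 (limma adjusted p = 0.00381). In Med15, the gene of a subunit of the Mediator complex (chr16:17694851-17695006), the fold was 2.41 ± 0.46 (limma adjusted p = 0.000632), with 171 and 108 in Treg_KO and 23.1 and 26.7 in preTreg_KO. The fifth by fold, at chr6:31169425-31169725, had no coding gene within 50 kb and a fold of 2.31.

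The 1 peak called lower lay over the start of Samd3 (chr10:26229536-26229832), whose promoter window is printed above. Its normalised read count was 30.4 and 25.0 in Treg_KO and 189 and 163 in preTreg_KO, against 67.8 and 68.3 in Treg_FL and 118 and 138 in preTreg_FL. Treg_KO was thus the lowest and preTreg_KO the highest of the 4 groups, with no overlap. The log2 fold of Treg_KO over preTreg_KO was -2.63 ± 0.30 (limma adjusted p = 1.41e-06), and that of Treg_KO over Treg_FL was -1.27 ± 0.27 (limma adjusted p = 0.0089). In SP_KO libraries the count lay between 13.8 and 21.5, and Treg_KO was still called above them by limma (0.66 ± 0.26, adjusted p = 0.0452) but not by edgeR (adjusted p = 0.0677).

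**Figure D4:**
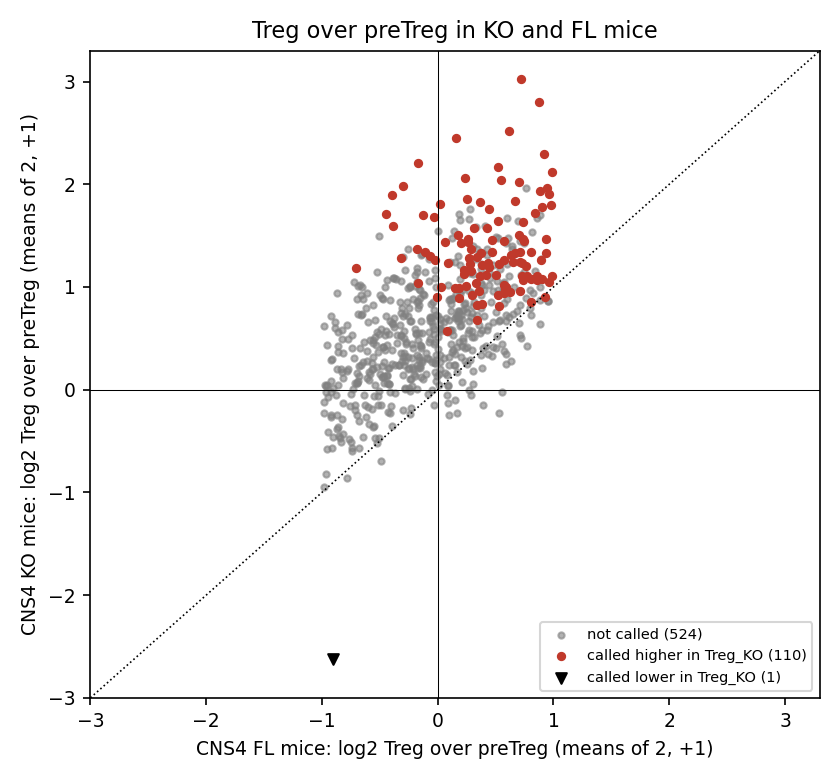
Each point is 1 of the 635 shared peaks, with the log2 ratio of mean Treg to mean preTreg counts (plus 1) in FL mice on the horizontal axis, bounded by the choice of peaks, and in KO mice on the vertical axis; the dotted line marks equal ratios. The 110 peaks called higher in Treg_KO are red, the Samd3 peak called lower is the black triangle at the bottom, and most points lie above the dotted line.

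Of the genes that mark Treg cells, 8 of the 23 listed had shared peaks, 15 of 362 peaks in all (4.14%). All 15 were called higher in Treg_KO than in SP_KO and 14 in preTreg_KO, while 3 were called higher in Treg_KO than in preTreg_KO and 0 lower. Of all 362 peaks of these genes, 212, 136 and 100 were called higher in these comparisons. Of all 635 shared peaks, 99.8%, 98.4% and 17.3% were called higher, against 20.1%, 18.8% and 5.73% of all tested peaks, so nothing particular to these genes, or to the lists that follow, is read from their counts. Over the 15, the median log2 fold of Treg_KO over preTreg_KO was 0.60, close to the 0.65 of all shared peaks. The strongest was a peak within Ikzf2 (chr1:69544272-69544618) with 658 and 545 in Treg_KO, 473 and 431 in preTreg_KO, 34.4 to 104 in SP_KO, and 563 and 639 in Treg_FL and 389 and 475 in preTreg_FL. Genotypes overlapped at this peak in Treg and in preTreg cells. The 4 Ikzf2 peaks differed among themselves. At chr1:69555530-69555703 the count was 80.3 and 76.8 in Treg_KO and 39.7 and 23.0 in preTreg_KO, a step that limma called (1.35 ± 0.33, adjusted p = 0.0068), whereas at chr1:69548506-69548778 it was 74.2 and 68.2 in Treg_KO and 74.8 and 88.2 in preTreg_KO (-0.19 ± 0.33, limma adjusted p = 0.813). Within Ctla4, the gene of an inhibitory receptor (chr1:60913419-60913615), Treg_KO had 557 and 422 and preTreg_KO 259 and 296 (0.81 ± 0.19, limma adjusted p = 0.00532). Near Tnfrsf9, which encodes the co-stimulatory receptor 4-1BB (chr4:150915137-150915821), Treg_KO had 589 and 435 and preTreg_KO 360.1 and 327 (0.56 ± 0.17, limma adjusted p = 0.029). The other listed genes with shared peaks were Tigit with 3, Cd83 and Nrp1 with 2 each, and Icos and Itgb8 with 1 each.

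Of the IL-2 and STAT5 genes, Il2rb (the receptor beta chain) had 3 shared peaks and Cish (a feedback inhibitor of the pathway) had 2, of 132 peaks of 13 genes. The peak within Il2rb at chr15:78493473-78494028 had 466 and 328 in Treg_KO and 329 and 441 in preTreg_KO, which overlapped, against 212 and 264 in Treg_FL and 465 and 462 in preTreg_FL, which did not. Its fold of Treg_KO over Treg_FL was 0.72 ± 0.20 (adjusted p = 0.056 by limma and 0.00264 by edgeR). The peak within Cish (chr9:107298176-107298416) had 126 and 84.5 in Treg_KO and 57.2 and 31.2 in preTreg_KO and was called higher in Treg_KO (1.27 ± 0.38, limma adjusted p = 0.0268). All 5 were called higher in both Treg_KO and preTreg_KO than in SP_KO, as were 61 and 47 of the 132, and the median Treg_KO over preTreg_KO fold was 0.81.

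Genes of T cell receptor and co-stimulatory signalling had 9 shared peaks of 426, in Tox and Rasgrp1 (3 each), Bhlhe40 (2) and Irf4 (1). All 9 were called higher in Treg_KO and in preTreg_KO than in SP_KO and 0 in either direction between Treg_KO and preTreg_KO, at a median fold of 0.37. Of the 9, 4 had an unadjusted limma p under 0.05 and edgeR called 4 higher and 0 lower, near the 45.8% of all shared peaks that edgeR called higher. Of all 426 peaks of these genes, 142 were called higher and 67 lower in Treg_KO than in SP_KO, and 123 and 55 in preTreg_KO. The peak near Rasgrp1, an activator of Ras downstream of the receptor (chr2:117390392-117390576), had 106 and 99.8 in Treg_KO and 111 and 90.1 in preTreg_KO, against 94.1 and 108 in Treg_FL and 107 and 128 in preTreg_FL, so that Treg_KO and preTreg_KO overlapped and Treg_KO lay just below preTreg_FL. At Tox, a nuclear factor of CD4 T cell development (chr4:6880985-6881189), the count was 124 and 118 in Treg_KO and 102 and 85.5 in preTreg_KO. Of the NF-kB genes, Traf1, Rel and Nfkb1 had 1 shared peak each of 204. The peak in Traf1, the gene of a signalling adaptor (chr2:34958079-34958413), had 219 and 191 in Treg_KO and 137 and 129 in preTreg_KO, against 159.8 and 153 in Treg_FL and 136 and 138 in preTreg_FL. All 3 were called higher in Treg_KO and in preTreg_KO than in SP_KO, and edgeR called 2 of them higher in Treg_KO than in preTreg_KO, where limma called 0 and 1 had an unadjusted p under 0.05.

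Chemokine receptor and adhesion genes had 3 shared peaks of 195, near Ccr8 and S1pr1 and in Itga4. The peak near Ccr8, the gene of a chemokine receptor of Treg cells (chr9:120091181-120091485), had 215 and 149.8 in Treg_KO and 91.4 and 100.2 in preTreg_KO, against 183 and 215 in Treg_FL and 146 and 131 in preTreg_FL. Treg_KO was called above preTreg_KO (0.90 ± 0.24, limma adjusted p = 0.0121). Near S1pr1, the gene of the receptor that guides exit from the thymus, Treg_KO had 55.9 and 54.7 and preTreg_KO 67.4 and 62.5, and limma did not call the step (-0.23 ± 0.33, adjusted p = 0.766). Among genes of effector Treg cells, Rora had 5, Bach2 (a repressor) 3, Runx2 2, and Klrg1 and Il10 1 each, 12 of 270 peaks. The peak within Il10, the gene of an anti-inflammatory cytokine (chr1:131022670-131022914), had 145 and 81.6 in Treg_KO and 59.1 and 59.7 in preTreg_KO, against 38.4 and 31.7 in Treg_FL and 50.5 and 49.4 in preTreg_FL. Its Treg_KO over Treg_FL fold was 1.61 ± 0.52 (adjusted p = 0.105 by limma and 8.22e-05 by edgeR). Genes of apoptosis had 3 of 97, a peak in Bcl2l1 (the pro-survival Bcl-xL) and 2 near Pmaip1 (the pro-apoptotic Noxa). The Bcl2l1 peak (chr2:152787617-152787838) had 226 and 174 in Treg_KO and 65.5 and 100.2 in preTreg_KO and was called higher in Treg_KO (1.28 ± 0.37, limma adjusted p = 0.0278). Of the 147 peaks of 9 immature thymocyte genes, 0 were among the shared peaks, which are 0.865% of all peaks. The choice asked for low SP_FL counts, and these genes had their highest sums in the libraries labelled mSP and smSP. Nothing is therefore read from this 0. The gene lists were drawn up with results of these data known, so their counts do not stand as independent evidence.

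**Figure D5:**
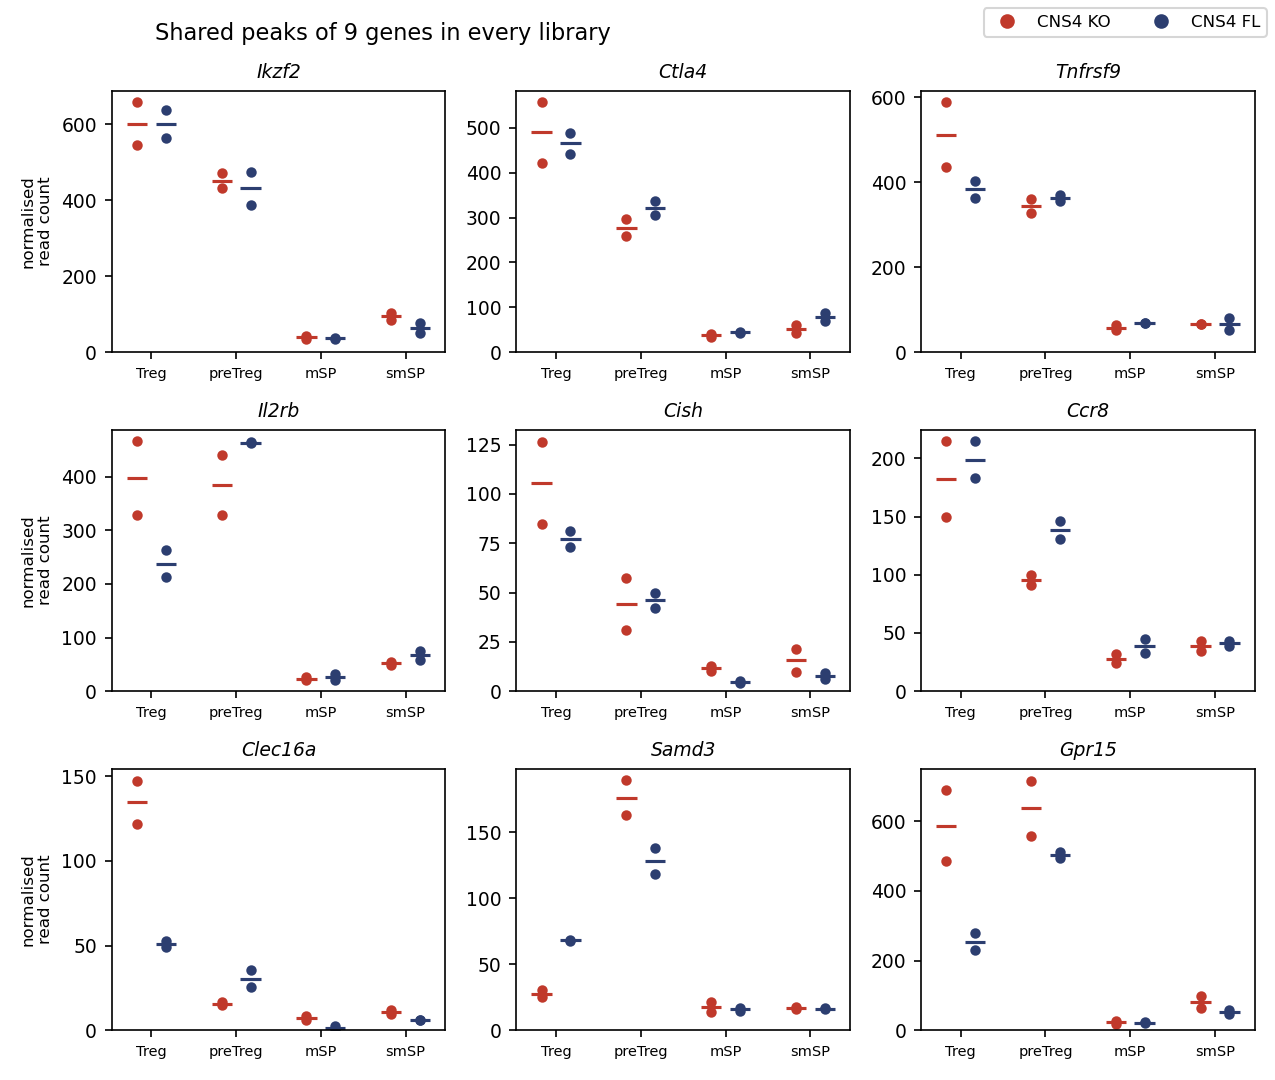
Normalised read count at 1 shared peak of each of 9 genes, per library (points) with the group mean of 2 libraries (line), for KO (red, left) and FL (blue, right) in Treg, preTreg, mSP and smSP as labelled. In every panel the Treg_FL and preTreg_FL points lie above the SP points, by the choice of peaks, while Clec16a and Samd3 show the opposite extremes of the step between Treg_KO and preTreg_KO.

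Genotypes were then compared within each population, which carries the choice of peaks on FL values. In Treg cells the shared peaks were on average higher in KO, with a median log2 fold of 0.43 (against 0.00 over all peaks) and 556 of 635 folds above 0. By limma 5 were called higher and 1, the Samd3 peak, lower, against 0.693% and 1.08% of all tested peaks, so the share of calls was near that of all peaks, while 103 had an unadjusted p under 0.05. By edgeR 116 were called higher and 1 lower, against 1.57% and 1.21% of all tested peaks. Of the 5 peaks that limma called higher, the largest fold was at Myo3b, the gene of an unconventional myosin (chr2:70127368-70127610), with 174 and 163 in Treg_KO and 59.7 and 80.7 in Treg_FL (1.27 ± 0.33, limma adjusted p = 0.0389). Near Gpr15, which encodes a receptor for homing to the colon (chr16:58701740-58702235), Treg_KO had 689.6 and 485 and Treg_FL 229.6 and 279 (1.19 ± 0.22, limma adjusted p = 0.00356), and preTreg cells had 716 and 559 in KO and 494 and 511 in FL. The peaks in Tiam1 (an activator of Rac), near Gtsf1l and in Nek6 (a mitotic kinase) followed with folds of 1.09, 0.80 and 0.56. Without 1 library at a time, limma called 0 higher and 0 lower without Treg_KO of T7, 12 and 1 without Treg_KO of T8, 0 and 0 without Treg_FL of T9, and 1 and 0 without Treg_FL of T10.

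In preTreg cells the median fold of KO over FL was -0.23, against 0.00 over all peaks, and 166 of 635 folds were above 0. By limma 0 were called in either direction, against 0.357% of all tested peaks called higher and 0.052% lower, and 40 had an unadjusted p under 0.05. By edgeR 1 was called higher and 17 lower, against 0.753% and 0.194% of all tested peaks, and by DESeq2 0 and 1. In SP cells the median fold of KO over FL was 0.20, against 0.00 over all peaks, and limma called 24 higher and 3 lower, against 0.942% and 0.537% of all tested peaks. By edgeR 7 were higher and 0 lower, against 1.32% and 0.535%. The largest was near Vangl2, a gene of planar cell polarity (chr1:171975863-171976153), with 10.3 to 13.0 in the 4 SP_KO libraries and 0 to 2.55 in the 4 SP_FL libraries (2.59 ± 0.27, limma adjusted p = 7.92e-07), while Treg_KO had 199 and 174 and Treg_FL 185 and 166. A peak near Cd47, which encodes a surface protein that restrains phagocytosis (chr16:49935792-49936738), had 43.6 to 76.1 in SP_KO and 18.7 to 47.1 in SP_FL (1.03 ± 0.13, limma adjusted p = 0.000126). The SP_FL values had been held low by the choice of peaks. At the 859 peaks chosen on KO means, a choice that carries the KO values in turn, the median fold of KO over FL was 0.01 in SP cells. It was -0.10 in preTreg cells and 0.61 in Treg cells there. The SP shift was thus not seen with the other choice of peaks, and the preTreg shift was smaller. The count of peaks called lower was 7 without mSP_KO of T7, 16 without mSP_KO of T8, 0 without mSP_FL of T10 and 13 without smSP_KO of T8, and that of peaks called higher was 14 without smSP_KO of T7. Without both T8 libraries labelled mSP and smSP, 35 were called higher and 25 lower.

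The difference in the Treg over preTreg step between genotypes, a comparison added after the values had been seen, was tested in 1 fit. The FL step in this difference was bounded by the choice of peaks, which does not bound it at other peaks, so the values are a description and nothing is read from the counts. The median over the 635 peaks was 0.65, against 0.00 over all peaks, and 590 of 635 lay above 0. By limma 0 peaks were called higher and 1 lower, against 0.0807% and 0.515% of all tested peaks, while 102 had an unadjusted p under 0.05. By edgeR 80 were called higher and 1 lower, against 0.592% and 0.705% of all tested peaks, and by DESeq2 12 and 0. The peak called lower by limma was that at Samd3 (-1.73 ± 0.38, adjusted p = 0.0239), and it was no longer called without either Treg_FL library, either preTreg_KO library or either preTreg_FL library (0 peaks lower in each of these 6 fits). At Il2rb the difference was 1.01 ± 0.29 (adjusted p = 0.0966 by limma and 0.00594 by edgeR), and at Med15 2.25 ± 0.65 (adjusted p = 0.103 by limma and 0.000388 by edgeR).

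Other features of the Treg libraries differed between genotypes alongside these peaks. The summed normalised read count over the 147 peaks of 9 immature thymocyte genes was 6532 and 8167 in Treg_KO, against 10250 and 10650 in Treg_FL, and lay between 6553 and 6703 in preTreg_KO and between 6478 and 6526 in preTreg_FL. Over the 10 Cd24a peaks it was 196 to 277 in Treg_KO and 362 to 372 in Treg_FL, and over the 2 Foxp3 peaks 313 to 356 in Treg_KO and 151 to 184 in Treg_FL, against at most 4.28 in all preTreg libraries. For 3 of 6 B cell markers with a peak (Cd79a, Ebf1 and Pax5) the sums were 314 to 334 in Treg_KO and 252 to 266 in Treg_FL, and 208 to 213 in preTreg_KO and 152 to 198 in preTreg_FL. For 4 of 9 myeloid and dendritic markers they were 1157 to 1243 in Treg_KO and 1049 to 1111 in Treg_FL, for 6 of 7 NK and innate-like T cell markers 2163 to 2234 and 2194 to 2196, and for 4 of 5 erythroid and stromal markers 490.1 to 535 and 569 to 607. In the libraries labelled mSP and smSP of both genotypes, the B cell sums were 331 to 414 and the myeloid and dendritic sums 1319 to 1448. The NK and innate-like sums there were 2747 to 3419, and the erythroid and stromal sums 594 to 739.5. Over the 78 peaks of the mature thymocyte genes S1pr1, Klf2 and Ccr7, the sums were 6039 to 6376 in Treg_KO and 6759 to 6921 in Treg_FL, and 6119 to 6328 in preTreg_KO and 5512 to 5708 in preTreg_FL. Over the 19 peaks of Il2ra, the CD25 gene, they were 2156 to 2189 in Treg_KO and 2111 to 2152 in Treg_FL. In preTreg_KO they were 1596 to 1735 and in preTreg_FL 1330 to 1443. The libraries labelled mSP had Il2ra sums of 1712 to 1800 in KO and 1433 to 1564 in FL. Those labelled smSP had 1647 to 1682 and 1414 to 1527. At Il2ra the preTreg sums thus overlapped those of the CD25-negative cells in both genotypes and did not separate them. Immature and mature sums were thus both lower in Treg_KO than in Treg_FL. The part of any of these in the values of the shared peaks was not tested.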

How the data were processed

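ATAC-seq was done on thymic Treg, preTreg, mSP and smSP cells of 4 mice, 16 libraries in all. The submitters' processing notes list Trimmomatic 0.36, mm10, STAR 2.5.4b, SAMtools 1.10, Genrich, R 3.6.3 and DESeq2 1.24.0. The notes used here do not say whether read ends were shifted for the transposase. The table deposited by the authors holds a signal per peak and library that equals whole reads over 1 constant per library (a size factor, 0.697 to 1.45). Whole reads were recovered from it for 100% of values within 0.0001. Libraries held 5585827 to 11437401 reads in peaks, at a median of 38 to 76 reads for a peak, which limits weak peaks.

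Tests used limma 3.58.1 in R 4.3.3 with trended and robust moderation, on log2(value + 1), which understates changes of weak peaks. Peaks averaging 10 or more in the fitted libraries entered, 73115 for the 8 KO libraries (4 residual degrees of freedom) and 73140 for all 16 (8 residual degrees of freedom), and p-values were adjusted by Benjamini-Hochberg over all of these with a threshold of 0.05. SP is the mean of libraries labelled mSP and smSP. Errors are SE of limma log2 folds. Alternatives were edgeR 4.0.16 (quasi-likelihood) and DESeq2 1.42.0 on recovered reads, other pseudocounts, filters and scalings, left-out libraries and the mouse as a block. The limma fit was run on simulated reads with known changes, and the edgeR and DESeq2 fits were not.

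Gene names came from the RefSeq table of GRCm38.p6 as the overlapped coding gene, the shortest where several overlapped, or the nearest within 50 kb, so a named gene need not be the target of a peak. Promoter windows came from the RefSeq table of that build, which lacks some genes. The labels give the 4 libraries of a number the same mouse, and deviations of same-mouse libraries from their group means correlated at -0.00919 to 0.0879 in KO and 0.0107 to 0.0492 in FL. Replicate libraries differed by more than counting noise (chi-square per peak 1.64 to 1.93). The members and gene lists were chosen with earlier results of these data known. Peaks were named by rule: the 10 largest folds over SP in KO, the 10 genes with most shared peaks, up to 3 genes per list, up to 5 called peaks per direction for Treg and preTreg KO over FL and for Treg_KO over preTreg_KO, and those nearest each threshold. The printed promoters, the Il10, Vangl2 and Fyn peaks and further Ikzf2 peaks were chosen after their values were seen. Distal peaks are given by position only.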

Additional observations from a re-analysis of the deposited data

Results flagged for a closer look

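The Samd3 peak stood out because its step of Treg over preTreg differed between KO and FL mice by a test of that difference (-1.73 on the log2 scale, limma adjusted p = 0.0239), with a lower count in Treg_KO than in Treg_FL and a higher one in preTreg_KO than in preTreg_FL. By edgeR, 81 of the 635 shared peaks differed in this step between the genotypes, 80 of them with a larger step in KO mice, where limma called 1 peak. Of all tested peaks edgeR called 0.592% with a larger and 0.705% with a smaller step. Both results use the FL step that the choice of peaks had bounded, so they are no independent evidence of a genotype difference. With 2 libraries per group, samples that stand apart within a group were not looked for.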

How the results depend on the processing

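The counts of shared peaks called over SP_KO moved by less than 1.5 times under every alternative run, from 573 to 630 for preTreg_KO and from 616 to 634 for Treg_KO when 1 library was left out, with 0 lower throughout. With the mouse as a replicate block they were 624 and 633, the counts for Treg_KO over preTreg_KO 120 and 1, for Treg_KO over Treg_FL 5 and 1, for preTreg_KO over preTreg_FL 0 and 0, for SP_KO over SP_FL 26 and 3, and for the difference in step 0 and 1, so the block changed no count by over 1.5 times. Counts between Treg_KO and preTreg_KO, and between genotypes, moved more. Taking the T8 populations from the descriptions leaves every fold as it is and can change calls only through the error of the fit. For the other settings the cause was not tested. Treg_KO over preTreg_KO gave 192 higher and 2 lower with a pseudocount of 5, 42 higher with T8 populations taken from the descriptions, 291 and 5 by edgeR, and 19 to 68 higher with 1 library left out. Treg_KO over Treg_FL gave 24 higher with a pseudocount of 5, 144 with only these groups in the fit, 0 with T8 by description, 116 by edgeR, 32 by DESeq2, and 0 to 12 higher and 0 to 1 lower with 1 library left out. preTreg_KO over preTreg_FL gave 1 lower with a pseudocount of 5, with quantile normalization and by DESeq2, 3 higher and 33 lower with only these groups in the fit, 1 and 17 by edgeR, and 0 with 1 library left out. SP_KO over SP_FL gave 5 lower with a pseudocount of 0.5, 15 higher with a pseudocount of 5, 10 higher with quantile normalization, 2 and 0 with only these groups in the fit, 6 and 0 with T8 by description, 7 and 0 by edgeR, 2 and 0 by DESeq2, and 14 to 35 higher and 0 to 25 lower with libraries left out. The difference in step gave 11 higher with a pseudocount of 5, 109 with only these groups in the fit, 80 by edgeR, 12 higher and 0 lower by DESeq2, 0 lower with T8 by description, and 0 to 8 higher and 0 to 1 lower with 1 library left out. With a limit changed in FL and KO alike, the share of FL-chosen peaks that met the criteria in KO was 62.9% with a fold of 2, 49.9% with a fold of 4, 59.9% with a minimum mean of 50 and 37.1% with a ratio limit of 1.5, and with the limits kept it was 49.6% to 52.8% in 1 KO mouse. Of the single peaks named, the Treg_KO over preTreg_KO fold changed sign at Rasgrp1 (-0.001 without Treg_KO of T7 and -0.107 without preTreg_KO of T8, up to 0.188), at Il2rb (-0.213 without Treg_KO and -0.173 without preTreg_KO of T7, up to 0.29) and at Rel (-0.191 without preTreg_KO of T8, up to 0.707), none of which had been called. Depth limits weak peaks, since SP values of the shared peaks rest on few reads.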

Other observations

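The chosen peaks were spread over the genome, with shares of the peaks of a chromosome between 0.261% on X (4 peaks) and 1.41% on chromosome 16, and 0 on Y. Without the 4 X-linked peaks the median log2 ratio of Treg to preTreg over the 631 others was 0.71 in T7 and 0.54 in T8, against -0.01 in T9 and -0.03 in T10. Of the genes with most shared peaks, Ptger2, which encodes a receptor for prostaglandin E2, had 5, all outside its gene body. The strongest, at chr14:45041150-45041453, had a normalised read count of 255 and 261 in Treg_KO and 201 and 143 in preTreg_KO, against 182 in each Treg_FL library and 164 and 170.3 in preTreg_FL. Among the 4 shared peaks near Tnc, at chr4:63939634-63939931 the count was 219 and 209 in Treg_KO and 188 and 180.1 in preTreg_KO, against 163 and 206 in Treg_FL and 196 and 219.8 in preTreg_FL, and the difference in the step of Treg over preTreg between genotypes was 0.40 ± 0.44 (limma adjusted p = 0.795). Within Fyn, which encodes a kinase of T cell receptor signalling, 3 shared peaks lay within 502 bp (chr10:39434915-39435416).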
